A study of Mus musculus with 89 samples.

Results

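The interferon-stimulated genes described here are 32 genes that cells switch on after they sense interferon, chosen as a list of names, and all of them were among the 19962 targets of the panel. Their tag counts were low in these sections. Together they took 0.157% of the counts, where 32 average targets would take 0.160%, and only Ifitm3, Parp14 and a few others rose clearly out of the background. Among 8 comparisons between classes of segment, Parp14 was the only tested member to pass the test, and it was lower at the interface and within the tumour than in the stroma before treatment. It did not pass when groups of neighbouring regions were compared within themselves. Few groups held both classes, and the SEs were larger in that fit. Parp14 also did not pass on counts per 10000 in a segment or on counts thinned to 3000.

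The study measured gene expression in situ by GeoMx, in which light releases the tags of hybridised probes from chosen regions, with the mouse Whole Transcriptome Atlas as the panel, on frozen sections of mouse squamous cell carcinoma, to ask how neutrophils in different parts of the tumour respond to immunotherapy. Each of the 89 segments is a small region of tissue, given the cell type neutrophil by the labels, and it can hold several kinds of cell. The authors' annotation divides them into 7 classes of stage and location: naive stroma (15 segments), naive interface with the tumour (13), naive within tumour (14), acute stroma (9), acute interface (2), relapse stroma (14) and relapse interface (22). Naive segments are annotated as pre-treatment, and acute and relapse segments as post-treatment. The annotation's names do not agree on this in full: the slide of the acute segments has the word treated in its scan name, and the slide of the relapse segments has treated as its slide name and relapse in its scan name. Which treatment each of these slides had was not settled here. The strain, genotype and age of the mice, the agent given and the number of animals are not given in the sources used here. The annotation's scan names use different tumour model words for the naive and the relapse slide, and which model each class comes from was not settled here. The naive, acute and relapse segments lie on 3 separate slides, so a difference of stage cannot be told apart from one of slide. The labels do not tie segments to animals, and many segments neighbour each other on a slide, so some share an animal and p-values over segments are too small.

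Interferons bind receptors on the cell surface and act through the kinases of the JAK family on STAT proteins. Type I and type III interferons act mainly through a DNA element called the interferon-stimulated response element, which IRF9 helps to recognise, whereas interferon gamma acts mainly through the gamma-activated site. The induced genes block the entry, translation and spread of viruses, and in tumours the same programme is known in neutrophils, macrophages, endothelium, fibroblasts and tumour cells, so a count of these genes in a segment does not name the cell that made it. In segments that hold many cells, fewer cells of a type and less RNA per cell cannot be told apart.

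Many members, but not all, share a promoter feature that the list itself did not use. RefSeq (GRCm38.p6) gave windows from 250 bases before to 50 bases after the start site for 26 of the 32 members. The letters of the interferon-stimulated response element, GAAANNGAAA on either strand, were in the windows of 16 of these 26 (61.5%), against 3.84% of 15743 panel genes. The letters of the gamma-activated site, TTCNNNGAA, which reads the same on both strands, were in 9 of 26 (34.6%), against 8.94% of panel genes. The matches of these motifs can overlap each other. Both motifs were matched in 6 members and at least 1 of them in 19, while the other 7 (Trim25, Irf7, Irf9, Oasl1, Oasl2, Ifi47 and Ifi44) held neither. A match is a description of letters, not of binding. Stretches around the matches of 4 tested members are shown because they hold the arrangements seen in the list, with matches in capitals: tandem response elements (Isg15), separate elements on the other strand (Ifit3), an element beside a gamma site (Igtp) and matches just after the start site (Ifitm3).
Isg15: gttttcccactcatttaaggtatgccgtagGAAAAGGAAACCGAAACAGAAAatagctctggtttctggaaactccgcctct
Ifit3: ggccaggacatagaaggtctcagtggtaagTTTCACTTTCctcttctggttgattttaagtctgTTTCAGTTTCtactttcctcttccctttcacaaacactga
Igtp: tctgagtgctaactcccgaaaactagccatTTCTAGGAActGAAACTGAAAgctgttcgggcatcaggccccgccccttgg
Ifitm3: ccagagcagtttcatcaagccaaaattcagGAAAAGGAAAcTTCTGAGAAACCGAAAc
Read 5′ to 3′ along each gene, they lie at chr4:156200845-156200926 on the minus strand (Isg15), chr19:34583343-34583446 on the plus strand (Ifit3), chr11:58199481-58199561 on the plus strand (Igtp) and chr7:141010715-141010772 on the minus strand (Ifitm3). Counted with the start site as 0, they run from -108 to -27, from -186 to -83, from -75 to 5 and from -28 to 29. Of the 12 members that were tested below, 10 had a window and 7 of those held a response element. Parp14 and Mx1 had no window in the table.

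The deposited values are tag counts divided by a factor of each segment, with a floor of 1 count, so a gene that was not seen reads higher in a shallow segment. Counts were therefore recovered with the factor, and those above 1 were pooled. Depth, the sum of all counts above 1 in a segment, ranged from 917 to 228562 with a median of 11428. It was deepest in acute stroma (median 81873) and shallowest in relapse interface (median 5565), and the 11 acute segments held 37.7% of all counts. The neutrophil label could be checked only weakly: the 16 neutrophil markers had 1.11 times the counts of an average target, with Ly6g above the limit of quantitation in 6 segments and S100a8 in 44, while fibroblast markers had 13.3 times and macrophage markers 5.14 times. These means rest on a few genes. S100a8 and S100a9 had 3.22 and 2.85 times, and the other neutrophil markers 0.450 to 1.18 times. Apoe had 27.3 times, and the other macrophage markers 1.43 to 3.42 times. The fibroblast markers ran from 1.95 times (Pdgfra) to 46.6 times (Col1a1).

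Over all segments the members differed little from the rest of the panel. Their values were at the floor in 67.8% of cases, against 69.1% for all targets, and exceeded the limit of quantitation in 8.88%, against 8.35%. This limit is set in each segment as the geometric mean of the negative probes times their squared geometric SD, and is at least 2 counts. The median member had 102 counts above 1 in all, and the median target 95. The mean target had 117.9, and 9 of the 32 members exceeded it, as did 26.1% of all targets. Levels are compared here as tag counts, and each target has its own probe, so the order among members is not an order of transcripts.

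**Figure D1:**
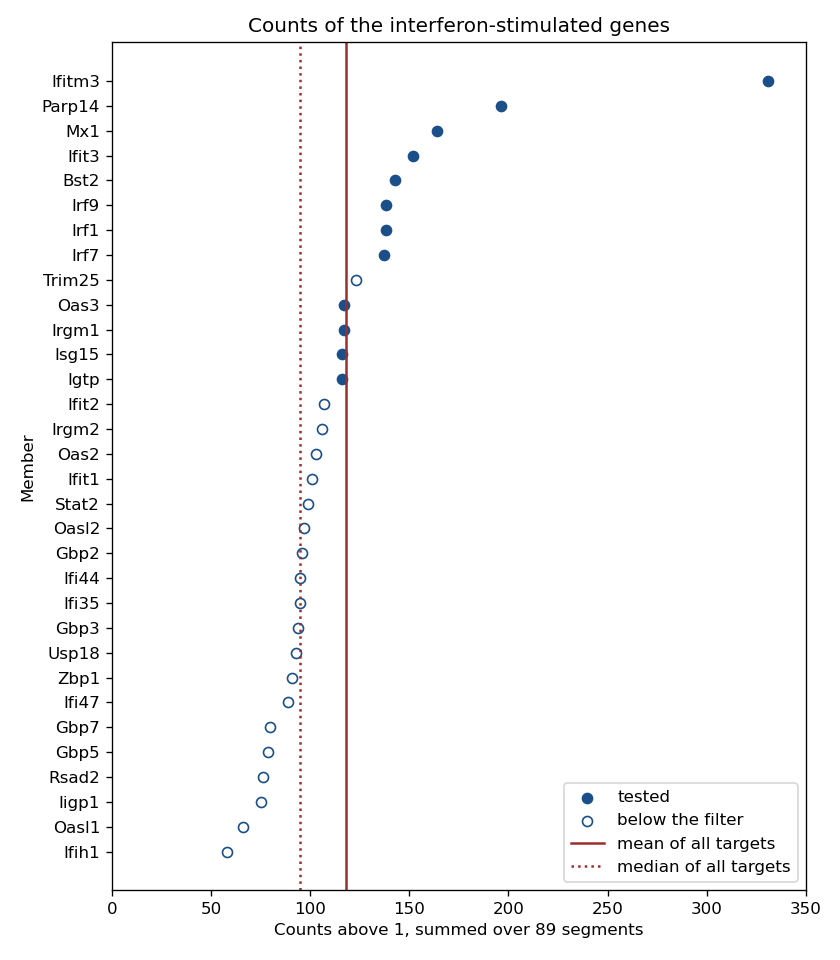
Counts above 1 of each of the 32 members, summed over 89 segments (x axis), with filled points for the 12 members that passed the filter of the test and open points for the other 20. Solid and dotted lines mark the mean (117.9) and the median (95) of all targets; Ifitm3 (331) and Parp14 (196) stand farthest to the right, and most members lie between 58 and 164.

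Ifitm3 gave the highest counts of all members, while Bst2, the other membrane protein, had fewer than Parp14, Mx1 and Ifit3. Ifitm3, which stops enveloped viruses from fusing in endosomes, had 331 counts, 2.81 times the panel average, and was above the limit in 32 segments (chr7:141009590-141010744). Bst2, or tetherin, which holds budding virus particles at the cell surface, had 143 counts and passed the limit in 12. In segments of at least 5000 counts Ifitm3 stood at 3.52 times the negative probes, the highest of the list. The other effectors were led by Parp14, an ADP-ribosyltransferase (chr16:35831892-35871518), with 196 counts, 2.32 times the negative probes and 20 segments above the limit. Rsad2 (viperin) had 76, and Ifi35 and Ifi44 had 95 each.

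The GTPases were led by Mx1, a dynamin-like protein that blocks the replication of influenza viruses, with 164 counts and 16 segments above the limit. The immunity-related GTPases Irgm1 and Igtp, which act on vacuoles that hold pathogens, had 117 and 116 counts, and Irgm2, Ifi47 and Iigp1 had 106, 89 and 75. The guanylate-binding proteins Gbp2, Gbp3, Gbp7 and Gbp5 had 96, 94, 80 and 79. Among effectors that bind RNA or make oligoadenylates to activate RNase L, Ifit3 had the most (152 counts, 15 segments above the limit) and Oas3 was next with 117, while Oasl1 had 66. The transcription factors Irf9, Irf1 and Irf7 had 138, 138 and 137 counts, and Stat2, the partner of Irf9, had 99. The ubiquitin-like modifier Isg15 had 116, Usp18, which removes it from proteins, had 93, and the ligase Trim25 had 123. The sensors were among the lowest: Zbp1, which reads Z-form nucleic acid, had 91, and Ifih1, which reads long double-stranded RNA, had 58, the fewest of the list.

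The 20 members that did not pass the filter of the test had 58 to 123 counts each, were above the limit in 2 to 7 segments and stood at 1.16 to 1.68 times the negative probes. Their highest count in any segment was 7 to 16. In relapse stroma 7 of these 20 (Ifit1, Oasl1, Gbp3, Gbp5, Iigp1, Ifi47 and Rsad2) had no count above 1 in any segment, and in relapse interface 5 (Usp18, Oasl1, Gbp2, Rsad2 and Ifi35) had none. In acute stroma each had at least 23 counts. At these depths an absent gene cannot be told from one below detection. The filter asked for a value above the limit in at least 10% of segments. Isg15, Irf7 and Igtp were just inside it, with 9 segments each, and Gbp2 and Irgm2 just outside it, with 7.

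The members' share of counts was much alike in the 7 classes, and each class spread widely. In naive stroma the pooled share was 0.156%, and single segments ran from 0.0385% to 0.304% with a median of 0.161%. Naive interface had 0.155% (0.0823% to 0.216%, median 0.158%). Naive within tumour had 0.137% (0 to 0.271%, median 0.121%). These 3 classes overlapped over most of their range.

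Acute stroma had the highest pooled share, 0.174%, with segments from 0.0858% to 0.238% and a median of 0.167%. Its 2 interface segments had 0.148% and 0.153%. Relapse stroma had 0.129% (0 to 0.222%, median 0.123%) and relapse interface 0.130% (0 to 0.242%, median 0.108%). Relative to an average target the classes ran from 0.802 times in relapse stroma to 1.09 times in acute stroma. The SD over segments was 0.0456 percentage points in acute stroma, 0.0473 in relapse stroma and 0.069 in relapse interface. The difference between the highest and lowest pooled shares was about as large as these SDs, and no test was made of it.

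The share was lower in shallower segments. Segments under 2000 counts gave the members 0.0579%, those from 2000 to 5000 gave 0.103%, those from 5000 to 20000 gave 0.147%, and those of 20000 or more gave 0.161%. When every segment was thinned to 3000 counts, the pooled shares were 0.158% in naive stroma, 0.159% in naive interface, 0.127% in naive within tumour, 0.181% in acute stroma, 0.117% in acute interface, 0.121% in relapse stroma and 0.148% in relapse interface. Shallower segments were left out of this: 3 of naive within tumour, 1 of relapse stroma and 6 of relapse interface. The share in relapse interface was then higher than in relapse stroma by more than in the unthinned values. Counts of 1 had been removed before thinning, while counts of 1 made by thinning were kept. Depth was therefore not fully equalised for genes near 1 count, here or in the tests on thinned counts below.

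**Figure D2:**
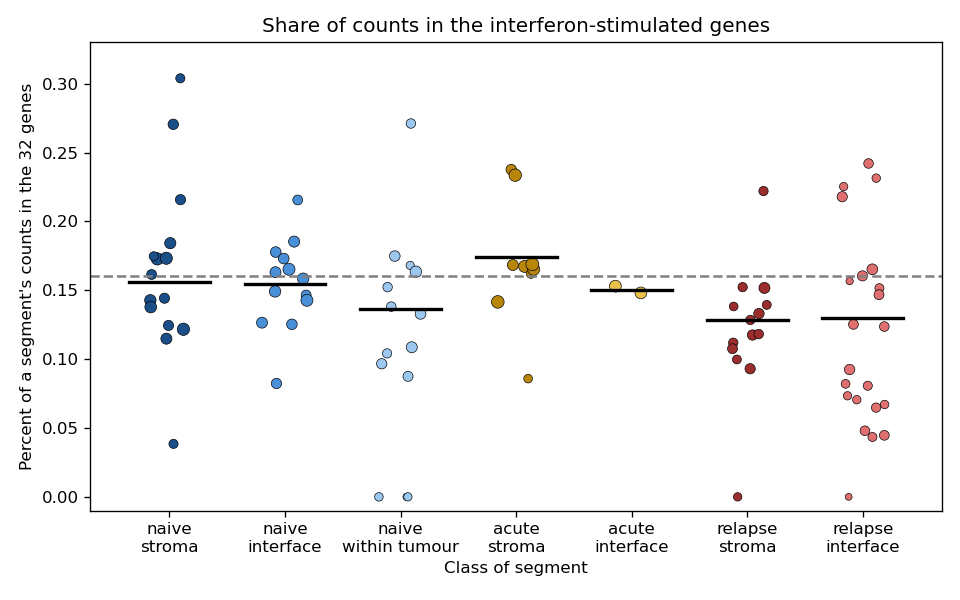
Percent of each segment's counts in the 32 members (y axis) by class; points are segments, sized by the logarithm of depth, and their sideways position within a class carries no meaning. Black bars are the pooled share of each class, from 0.129% (relapse stroma) to 0.174% (acute stroma), and the dashed line is the share of 32 average targets (0.160%).

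Few members were detected in shallow segments, but the deepest class did not have the most, and by its definition the limit rises with the negative probes. No member exceeded the limit of quantitation in 26 of the 89 segments, and in 5 segments no member had a count above 1. A median of 2 members per segment exceeded the limit. It was 5 in naive interface (2 to 12), 3 in naive stroma (0 to 8), 2 in acute stroma (0 to 12) and acute interface (1 to 3), 1 in relapse stroma (0 to 6), and 0.5 in both naive within tumour (0 to 15) and relapse interface (0 to 6). The share of member values above the limit was 16.6% in naive interface, where it was 16.7% for all targets, and 4.12% in relapse interface, where it was 4.00% for all targets. Acute stroma was the class in which they differed most, at 11.5% for members and 7.29% for all targets. Its segments of 29107 and 130144 counts, from the same group of neighbouring regions, had 12 members each above the limit. The others had 0 to 3 each, so the excess came from these segments rather than from the class as a whole. The segment with the most members above the limit, 15, was 1 of the naive within tumour, at 47721 counts. Of its targets, 40.5% exceeded the limit. It had 7 counts of Ifit3, 4 of Ifitm3, and Parp14 at the floor.

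**Figure D3:**
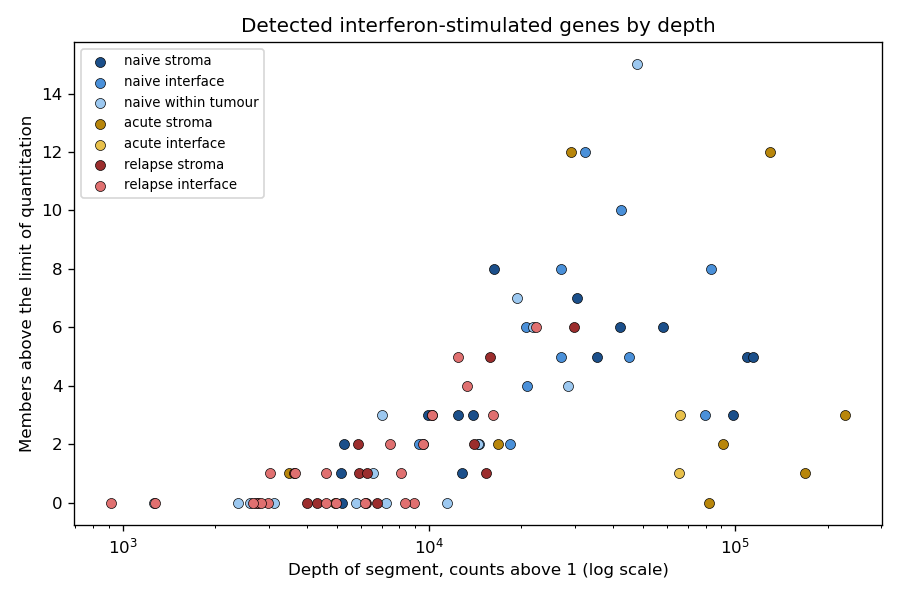
Members above the limit of quantitation in each segment (y axis) against its depth (x axis, log scale), coloured by class. Few members are detected below 5000 counts, and the deepest acute segments, whose negative probes are also highest, have 0 to 12.

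In the fit as reported, location before treatment was the comparison with the most differences across the panel. Between naive interface and naive stroma, 540 of 5087 tested targets (10.6%) passed limma's test at an adjusted p of 0.05, 513 of them lower at the interface, and 1 of 12 tested members passed it. Between naive within tumour and naive stroma it was 210 targets (4.13%), 197 of them lower, and again 1 member. The member was Parp14 in both, and a share of 1 in 12 is near the background. The median difference of the tested members was -0.18 at the interface and -0.07 within the tumour, and over all targets -0.14 and -0.07, on the log2(value + 1) scale of all differences given here. The lead of the interface depended on the scale. On counts per 10000, 23 targets passed at the interface, 90 within the tumour and 51 between relapse stroma and naive stroma. On counts thinned to 3000 they were 19 and 43, and 22 between relapse interface and naive interface. The median over all targets at the interface was 0.03 on counts per 10000.

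Among the naive classes, Parp14 was above 1 in the largest share of segments in the stroma. It had 1 to 12 counts there, with a median of 3 and 12 of 15 segments above 1. At the naive interface it had 1 to 6 counts (median 2, 8 of 13 segments above 1), and within the tumour 1 to 2 counts (median 1, 2 of 14 segments above 1). The ranges overlapped, since each class held segments at the floor, but no segment within the tumour reached 3 counts, which is the stroma's median. Normalised values were 6.35 ± 3.01 (SD, n = 15) in stroma, 3.61 ± 2.02 (n = 13) at the interface and 3.56 ± 1.92 (n = 14) within the tumour. With depth in the model Parp14 was lower at the interface by a log2 difference of -0.67 (SE 0.20, limma adjusted p = 0.0141) and within the tumour by -0.68 (SE 0.21, limma adjusted p = 0.0324).

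In segments of 5000 to 50000 counts Parp14 was above 1 in 8 of 11 of the stroma, 6 of 11 of the interface and 1 of 10 within the tumour, at median depths of 12855, 20816 and 12957. This range was chosen after the values were seen. The test passed under 20 of 25 alternatives at the interface and 16 of 25 within the tumour, and the difference was negative in every one. On counts per 10000 it did not pass in either (-0.49, adjusted p = 0.711, and -0.56, adjusted p = 0.414), nor on counts thinned to 3000 (-0.11, adjusted p = 0.953, and -0.21, adjusted p = 0.776). The call also depended on groups of neighbouring regions on a slide, made here from the regions' coordinates and numbered within a slide. With these groups as a fixed block, so that classes are compared only within a group, Parp14 did not pass at the interface (-0.64, SE 0.28, limma adjusted p = 0.319) or within the tumour (-0.61, SE 0.27, limma adjusted p = 0.480). The targets that passed fell from 540 to 15 and from 210 to 10. Without the block the SEs were 0.20 and 0.21. Stroma and interface segments met only in naive groups 1 (2 and 8 segments) and 2 (3 and 1). Stroma and within tumour segments met only in naive groups 1 (2 and 7), 2 (3 and 3) and 5 (4 and 2). With so few shared groups, this fit cannot tell a smaller difference from a less precise one. Without group 1 of the naive slide the limma differences were -0.43 (adjusted p = 0.460) and -0.43 (adjusted p = 0.718). Without group 5 they were -0.58 (adjusted p = 0.0722) and -0.48 (adjusted p = 0.344). The difference within the tumour alone also missed the threshold without naive group 4 (-0.71, adjusted p = 0.0584) and without relapse group 1 (-0.69, adjusted p = 0.0546), with the groups as a random block (-0.65, adjusted p = 0.0732) and with no filter on low targets (-0.68, adjusted p = 0.101).

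Markers of other cells moved with the same comparison. All 8 tested fibroblast markers and 7 of 9 macrophage markers passed the test as lower at the naive interface than in naive stroma. Within the tumour 7 and 6 passed it as lower. Of all targets 10.6% and 4.13% passed, in either direction. Every marker of both lists had fewer counts per 100000 at the interface and within the tumour than in stroma. The fibroblast markers had 29.4, 4.40 and 1.64 times the panel average in naive stroma, interface and within tumour, and took 0.126% to 2.32%, 0.0721% to 2.24% and 0 to 0.336% of a segment's counts. The macrophage markers had 10.9, 1.71 and 1.73 times, and took 0.0361% to 0.971%, 0.0297% to 1.27% and 0 to 4.83%. Apoe was the highest of them in each of these classes, with 319, 24.9 and 36.8 per 100000 counts. No fibroblast or macrophage marker was at 0 in any of these classes. None of the 3 tested neutrophil markers passed. The part of these cells in the Parp14 difference was not tested.

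**Figure D4:**
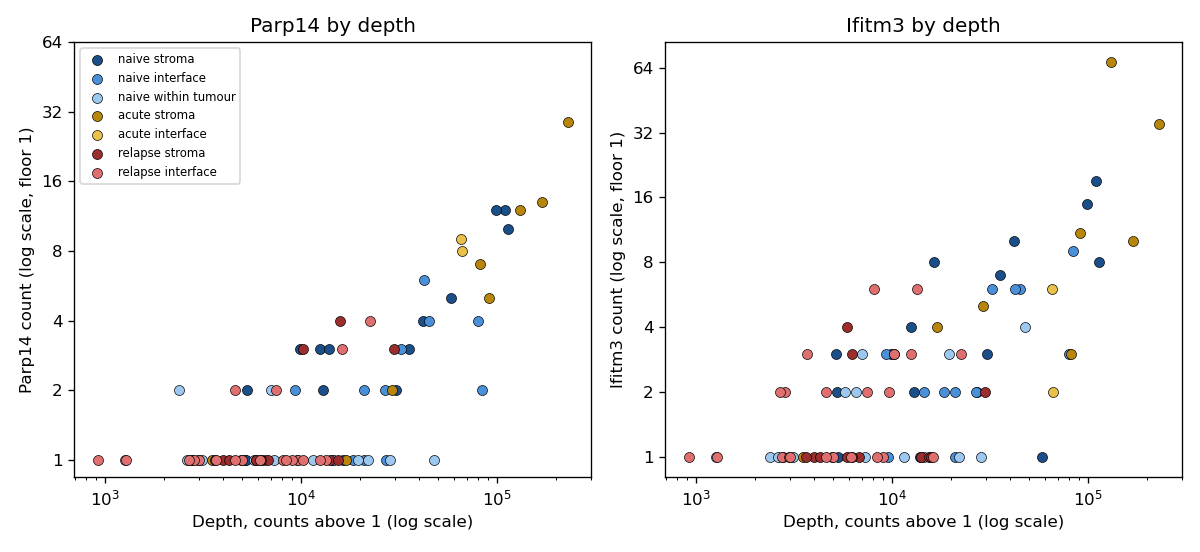
Counts of Parp14 (left) and Ifitm3 (right) in each segment (y axis, log scale with a floor of 1) against depth (x axis, log scale), coloured by class. Parp14 counts rise with depth, and the naive within tumour segments stay at 1 or 2 up to 47721 counts; Ifitm3 reaches 68 in 1 acute stroma segment.

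Ifitm3 had the largest numbers but did not pass the test. Its counts were 1 to 19 in naive stroma (median 3, 12 of 15 segments above 1), 1 to 9 at the naive interface (median 2, 11 of 13) and 1 to 4 within the tumour (median 1, 5 of 14). The ranges overlapped. Its log2 difference from stroma was -0.58 at the interface (SE 0.27, limma adjusted p = 0.154) and -0.65 within the tumour (SE 0.27, limma adjusted p = 0.203), and with groups of neighbouring regions as a fixed block -0.14 (adjusted p = 0.912) and -0.12 (adjusted p = 0.958). In acute stroma it had 1 to 68 counts (median 5), and 1 segment of 130144 counts held the 68, which is 50% of the class's Ifitm3 counts. Per 100000 counts acute stroma had 18.01 with that segment and 10.9 without it. Fibroblast markers took 1.24% of that segment's counts, against a median of 0.323% and a highest share of 3.48% in acute stroma. In relapse, counts were 1 to 4 in stroma (4 of 14 segments above 1) and 1 to 6 at the interface (11 of 22), with a log2 difference of 0.37 (SE 0.24, limma adjusted p = 0.9999).

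Isg15 and Irf1 were next in size at the naive interface. Isg15 had 1 to 7 counts in naive stroma (8 of 15 segments above 1) and 1 to 4 at the interface (3 of 13), and its log2 difference was -0.50 (SE 0.18, limma adjusted p = 0.0573). Irf1, which binds the response element and is itself induced through the gamma site, had 1 to 11 counts in stroma (9 of 15) and 1 to 4 at the interface (7 of 13), with -0.49 (SE 0.18, limma adjusted p = 0.0692). Neither passed. Leaving out naive group 3 brought both past the threshold (Isg15 -0.65, adjusted p = 0.0264; Irf1 -0.60, adjusted p = 0.0416), and leaving out naive group 2 brought Isg15 past it (-0.75, adjusted p = 0.00577). Leaving out naive group 1 took them the other way, to -0.19 for Isg15 (adjusted p = 0.763) and -0.04 for Irf1 (adjusted p = 0.953), and without naive group 5 Isg15 was at -0.28 (adjusted p = 0.410). On counts thinned to 3000 the difference of Irf1 was 0.09 (adjusted p = 0.943). With the groups as a fixed block it was -0.28 for Isg15 (adjusted p = 0.716) and -0.23 for Irf1 (adjusted p = 0.783).

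The other 8 tested members at the naive interface had differences from -0.36 (Igtp) to 0.38 (Ifit3). Ifit3, a subunit of a complex that binds viral RNA, pointed the other way from Parp14: it was above 1 in 6 of 15 segments of naive stroma (1 to 6 counts) and in 10 of 13 of the interface (1 to 5 counts), with a limma adjusted p of 0.216. Mx1 was above 1 in 8 of 15 segments of stroma, 10 of 13 of the interface and 6 of 14 within the tumour. Bst2, Irf9, Oas3 and Irgm1 differed by 0.02, -0.04, 0.01 and 0.14, and Irf7 by -0.31. In this fit the 12 members did not share a direction, with 5 differences above 0 and 7 below.

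**Figure D5:**
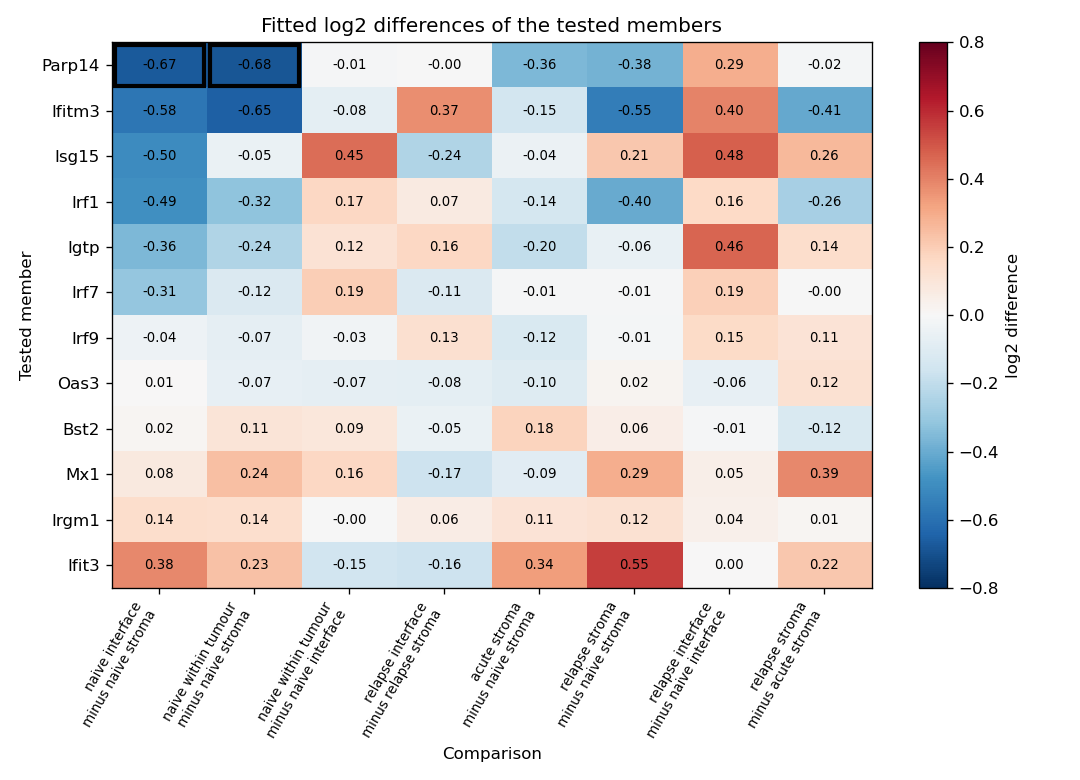
Fitted log2 differences (colour and number in each cell) of the 12 tested members (rows) in 8 comparisons (columns), from limma with depth as a covariate. Outlined cells passed the test after adjustment over all 5087 targets, and both belong to Parp14 (-0.67 and -0.68).

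The remaining comparisons gave no member past limma's test. Between naive within tumour and naive interface 0 of 5087 targets (0%) passed, with 371 at an unadjusted p under 0.05, and 1 of 12 members, Isg15, was among those (0.45, adjusted p = 0.601). Between relapse interface and relapse stroma 0 targets (0%) passed, with 122 unadjusted and 0 members among them. The change from stroma to interface in relapse was also set against that in naive, an interaction in which 175 targets (3.44%) passed and 0 members did. At an unadjusted limma p under 0.05 were 5 of 12 members and 872 of 5087 targets. Among these members Ifitm3 had 0.95 (SE 0.36, limma adjusted p = 0.121) and Parp14 0.67 (SE 0.27, limma adjusted p = 0.157). Irf1 (0.56) and Igtp (0.52) pointed the same way, and Ifit3 (-0.55) the other. A difference of Parp14 by location in naive that exceeds the one in relapse was thus not shown.

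Between stages, acute stroma minus naive stroma had 6 targets past the test (0.118%), relapse stroma minus naive stroma 85 (1.67%), relapse interface minus naive interface 66 (1.30%) and relapse stroma minus acute stroma 61 (1.20%). None was a member. Of all 5087 targets, 541, 503, 707 and 559 had an unadjusted limma p under 0.05. Among these were 0, 3, 2 and 0 of the 12 members. In relapse stroma these members were Ifit3 (0.55, adjusted p = 0.224), Ifitm3 (-0.55, adjusted p = 0.484) and Irf1 (-0.40, adjusted p = 0.449), so they pointed both ways. At the relapse interface they were Isg15 (0.48, adjusted p = 0.202) and Igtp (0.46, adjusted p = 0.255). Isg15 was above 1 in 2 of 22 segments of relapse interface and 3 of 13 of naive interface, and Igtp in 5 of 22 and 6 of 13, so the ranges (1 to 3 against 1 to 4, and 1 to 4 against 1 to 7) overlapped. Both passed only in the fit without depth (0.61, adjusted p = 0.0160, and 0.56, adjusted p = 0.0334). These comparisons share classes and also differ by slide, so the stage cannot be told apart from the slide. Naive and relapse segments also differ in a letter of their names, G or H, which was taken here as the plate. Naive and relapse cannot be told apart from that letter either.

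In the wider interferon pathway a minority of genes passed the test, among them Ifngr1 and relatives of Ifitm3, and those were lower at the naive interface than in naive stroma. Of 29 tested genes on a list of ligands, receptors, signalling proteins, sensors and further targets, 6 passed at the naive interface (10.6% of all targets did) and 3 within the tumour (4.13%), all lower than in stroma, and 0 passed in the other 6 comparisons. The receptor subunit Ifngr1, which binds interferon gamma, was lower by -0.97 at the interface (SE 0.20, limma adjusted p = 0.000271) and -0.67 within the tumour (SE 0.21, adjusted p = 0.0441). Among the targets, Ly6e, a surface protein anchored in the membrane by lipid, was lower by -0.97 (SE 0.28, limma adjusted p = 0.00939) and -0.97 (SE 0.28, adjusted p = 0.0265), and Lgals3bp, a secreted glycoprotein, by -0.62 (SE 0.21, limma adjusted p = 0.0394) and -0.71 (SE 0.22, adjusted p = 0.0358).

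Ifitm1 and Ifitm2, relatives of Ifitm3, were lower at the naive interface by -0.69 (SE 0.18, limma adjusted p = 0.00446) and -0.88 (SE 0.24, adjusted p = 0.00669), and Ifi27 by -0.59 (SE 0.20, adjusted p = 0.0431). In segments of 5000 to 50000 counts Ifitm2 was above 1 in 9 of 11 of naive stroma, 5 of 11 of the interface and 4 of 10 within the tumour. Median depths there were 12855, 20816 and 12957. Between stroma and interface, of 11 segments each, Ifitm1 was above 1 in 6 and 3, and Ly6e in 9 and 7. Ifngr1 was above 1 in 7 and 6, and Lgals3bp and Ifi27 in 6 and 6 each. Ifitm1, Ifitm2 and Ifi27 did not pass within the tumour, where Ifitm2 had -0.76 (limma adjusted p = 0.0569). The 3 genes of the pathway list with the most counts were Ly6e (387, 3.28 times the panel average), Gbp6 (307, 2.60 times) and Samd9l (299, 2.54 times), so only Ifitm3 among the members reached such a level. With groups of neighbouring regions as a fixed block 0 of the 29 passed limma's test in either comparison. At an unadjusted p under 0.05 were 5 and 3 of them, and 597 and 413 of all 5087 targets. At the interface Ifngr1 was then at -0.98 (adjusted p = 0.102) and Ifitm1 at -0.87 (adjusted p = 0.0879), while Ly6e was at -0.19 (adjusted p = 0.884) and Lgals3bp at -0.16 (adjusted p = 0.879). No ligand passed in any comparison, and none of the 10 sensors on the panel passed the filter.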

How the data were processed

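GeoMx tag counts of 89 segments were analysed. The deposited matrix holds signal: the tag count divided by an upper-quartile factor, a ratio deposited for each segment; multiplied by it, 99.986% of values were whole within 1e-06. The deposited negative-probe values are geometric means, and the authors' annotation gives classes, with slide and coordinates as scores. Seurat and mm10 are named in the submitters' processing notes; the aligner and the origin of the floor of 1 are not given in the sources used here. Members, lists and tests were chosen with earlier results of these data known. Targets above the limit of quantitation in at least 10% of segments (5087) were tested with limma 3.58.1 in R 4.3.3 (lmFit, eBayes with trend, two-sided, Benjamini-Hochberg over all tested targets) on log2(value + 1), with 7 class means and log2 depth. Count tests planned as alternatives were not run, since the matrix is normalised signal. Fitted differences are given for the 12 tested members, and values by class for only some of them. Other members are given by ranges and counts. Of the pathway list, those past the test and the 3 with the most counts are named. All 32 members matched a RefSeq symbol. The fit was tested on simulated data with independent segments, which cannot speak to segments that share an animal or a slide. Segments are the unit of replication, and nothing says they come from separate animals, so p-values measure only the spread between segments.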

Additional observations from a re-analysis of the deposited data

Results flagged for a closer look

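In acute stroma, the class with 4 to 10 segments, 1 segment stood apart from the other 8 in 4 members, measured as counts above 1 per 10000 counts of depth. Chance flags about 1 in 20 groups if the values are normal with 1 spread, and 13 quantities were looked at. Low counts over depths from 3494 to 228562 do not have 1 spread, so the chance rate here is not known. Ifitm3 had 5.22 in the segment of 130144 counts, on 68 counts, and 2.38 in the next. The other 3 rest on 2 or 3 counts in shallow segments. Ifit3 had 8.58 on 3 counts (next 1.09), and Bst2 and Irf1 had 4.05 each on 2 counts in 1 segment (next 1.78 and 1.03).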

How the results depend on the processing

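Parp14 kept its negative difference at the naive interface and within the tumour under all 25 alternatives run. The number of member calls over the 8 comparisons, 2 as reported, was 4 with no depth covariate, 0 on counts per 10000 and 0 on counts thinned to 3000. It was 1 with no filter and 1 with groups of neighbouring regions as a random block. The call of Parp14 at the interface stayed in both, and the call within the tumour was lost. The number was 0 to 4 when 1 such group was left out. It stayed at 2 with pseudocounts of 0.5 and 4, a filter at 20% of segments, a plate covariate, or segments of at least 5000 counts. With those groups as a fixed block, which serves only the 4 comparisons within a stage, no member passed limma's test in any of the 4. At an unadjusted p under 0.05 were 2, 2, 1 and 0 of the 12 members, and 597, 413, 412 and 119 of 5087 targets. Of 2272 values of single members under 25 alternatives, 2021 kept direction and call, 232 uncalled values changed sign, 14 calls were lost, 5 were gained and none reversed. Calls over all targets in the 8 comparisons, 968 as reported, were 195 on counts per 10000, 122 after thinning and 304 without naive group 1; at the naive interface 540 became 23 on that scale, 19 after thinning, 15 with the fixed block and 244 with the filter at 20%. Naive within tumour against naive stroma had 6.19% of its calls higher as reported and 30.2% after thinning. The median of all targets at the naive interface was -0.14 as reported and 0.03 on counts per 10000. The pooled share stayed within 1 SD of its segments in 6 classes under every alternative. In acute interface, with 2 segments, it was 0.0984% on counts above the limit, 0.135% less the negative probes, 0.145% less the floor, 0.144% without Ifitm3 and 0.132% without Ifitm3 and Parp14, against 0.151%. Segments with a member above the limit numbered 63 as reported, 25 with a limit of 5 counts, and 38 had a member above 1 count after thinning to 3000. The causes of these changes were not tested. Count tests were not run, as the values are normalised signal, and the annotation names no tissue pieces, so coordinate groups and their use as a block, chosen after seeing the data, stood in for them. With 67.8% of member values at the floor, depth limits what can be said of the 20 untested members. No paired analysis by replicate number could be made, since the classes share no such numbers. The coordinate groups, several of which hold more than 1 class, served as the block instead (correlation 0.0363 as a random block).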
